A study of Mus musculus with 10 samples.

Results

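Nell1, Runx2 and Ptprm are 3 long genes whose nascent transcription climbed steadily after the pluripotency factor SOX2 was removed from mouse embryonic stem cells and was highest at the last time point. They were 3 of the 16137 transcribed units (TUs, intervals of unbroken nascent RNA signal on 1 strand) with a gene symbol, among 40779 TUs in all. The 3 genes were chosen on measured values: among TUs with a symbol that rose, they had the smallest p values at 6 hours post depletion (hpd) against untreated cells. Ptprm, the last of the 3 in that order, had a log2 fold change of 1.59 ± 0.12 (SE), and the next 3 in the order, Stum, Mbnl2 and Dab2, had 3.14 ± 0.23, 1.48 ± 0.11 and 1.92 ± 0.15. Every contrast with NT or with 6 hpd is therefore given for these genes as a description without a test. Around them, 17 extragenic and antisense TUs lay within 200 kb on either strand, and these were chosen by position only.

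The cells were E14 mouse embryonic stem cells of the genotype SOX2-FKBP, in which SOX2 carries a degron tag (FKBP) that the small molecule dTAG-13 directs to degradation. Nascent RNA was read with TT_chem-seq, in which newly made RNA is labelled with 4-thiouridine (4SU), fragmented, captured and sequenced. All 10 libraries came from tagged cells grown without serum, with LIF and inhibitors of MEK and GSK3-β, and labelled with 2 mM 4SU for 10 min. NT cells received DMSO (2 libraries), and the other groups received 500 nM dTAG-13 for 0.5, 1, 2 or 6 h (2 libraries each). Every library carries the tag, NT included, and no untagged cells given dTAG-13 were analysed here, so that effects of the compound and of SOX2 loss cannot be told apart in these libraries. The labels do not say whether replicates were separate cultures, so that p values measure the spread between these libraries, which may be technical.

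RUNX2 is the transcription factor that commits mesenchymal precursors to the osteoblast lineage, and it binds DNA together with the non-DNA-binding partner CBFB. NELL1 is a secreted glycoprotein with von Willebrand factor C and EGF-like domains that promotes bone formation, and its gene has been described as a RUNX2 target in bone cells. PTPRM is a receptor-type protein tyrosine phosphatase that binds to itself across cell contacts and associates with cadherins and catenins. Runx2 is transcribed from a distal and a proximal promoter, which give proteins with different amino termini. In a gene that is long relative to the distance RNA polymerase covers within a labelling pulse, nascent fragments can come from anywhere along the transcribed stretch and not from the promoter alone.

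The TU counted for Nell1 lay at chr7:49975699-50473133 (mm10, + strand; starts are printed as deposited), was 497.4 kb long and began 350 bp downstream of the RefSeq transcript start. It covered 55.8% of the 891.7 kb gene in GENCODE, and 0 further TUs on its strand lay in the 393.5 kb beyond its end. The TU of Runx2 lay at chr17:44602852-44735116 (- strand) and was 132.3 kb long. It covered 41.5% of the 318.8 kb GENCODE gene, which ran 106.9 kb beyond the TU end, and 3 further TUs on its strand lay in the rest of the gene. The distal annotated start lay 79.7 kb upstream of the TU, which did not reach it. The TU of Ptprm lay at chr17:66692430-67354162 (- strand), was 661.7 kb long and covered 96.3% of the GENCODE gene. All 3 TUs span exons and introns together.

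The sequences below are the 250 bases before the 5′-most annotated start next to the TUs of Nell1 and Ptprm, where the counted transcription could begin, and before the distal start of Runx2, which lies outside the counted unit. They were read from GRCm38.p6 (mm10), run 5′ to 3′ on the strand of the gene and overlap no annotated exon. Capitals mark each CG dinucleotide and, in the distal Runx2 sequence, the RUNX core motif ACCACA.
Nell1, chr7:49974614-49974863, + strand: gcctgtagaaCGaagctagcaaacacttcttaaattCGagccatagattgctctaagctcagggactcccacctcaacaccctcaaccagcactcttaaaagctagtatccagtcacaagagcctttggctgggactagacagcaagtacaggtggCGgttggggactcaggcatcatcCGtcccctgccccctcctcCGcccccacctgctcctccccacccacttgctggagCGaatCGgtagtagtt
Runx2 distal, chr17:44814798-44815047, - strand: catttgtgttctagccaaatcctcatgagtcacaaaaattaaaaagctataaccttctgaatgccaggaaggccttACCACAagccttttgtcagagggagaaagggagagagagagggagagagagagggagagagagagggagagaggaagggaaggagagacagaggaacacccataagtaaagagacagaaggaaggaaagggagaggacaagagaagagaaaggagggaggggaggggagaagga
Ptprm, chr17:67354492-67354741, - strand: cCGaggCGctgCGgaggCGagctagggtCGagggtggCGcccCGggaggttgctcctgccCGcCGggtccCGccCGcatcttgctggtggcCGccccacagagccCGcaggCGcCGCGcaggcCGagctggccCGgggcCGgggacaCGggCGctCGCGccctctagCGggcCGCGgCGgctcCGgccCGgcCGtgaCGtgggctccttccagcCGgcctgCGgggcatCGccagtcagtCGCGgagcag
The Ptprm sequence held 36 CG and was 79.6% G or C, a higher G and C content than 98.6% of the 32851 RefSeq promoters. The Nell1 sequence held 7 CG at 55.2% and the distal Runx2 sequence 0 CG at 48.4%, beside a median of 6 CG and 52.4% over all promoters. The RUNX core ACCACA, searched on both strands with its reverse complement TGTGGT, was found once, in the distal Runx2 sequence 174 bases before the start, and is held by 14.0% of all promoters over the same 250 bases. The SOX cores ACAATG (10.7% of all promoters) and ACAAAG (16.5%) and the octamer ATGCAAAT (1.60%) were not found on either strand in these 3 windows. The same search before 5 other annotated starts, all inside Nell1 or Ptprm, found the RUNX core before 1 start of Ptprm and ACAAAG before 2 others of Ptprm. These letters describe the windows and do not locate a binding site.

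The libraries held 11131490 to 25854106 fragments, and 28459 TUs were tested (14997 with a symbol). The chi-square per TU between replicates was 2.69 to 9.03, above what counting alone gives. Values are CPM, fragments of a TU relative to the library size after scaling, so a change in total transcription would not show. The cells carried the markers of their labelled type: the 11 pluripotency markers were all tested and summed to 4348 to 4765 CPM at NT and 3652 to 3932 CPM at 6 hpd, where 7 fell (4 without NT replicate 2) and 0 rose. Of all tested TUs with a symbol, 7.75% were called down and 10.4% up at 6 hpd. Sox2 itself, which is depleted as a protein, stood at 263 CPM at NT and 275 CPM at 6 hpd on average.

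Nell1 was weakly transcribed at NT and rose 8.91-fold in the mean CPM by 6 hpd. At NT, Nell1 stood at 6.19 and 7.05 CPM in replicates 1 and 2. The libraries of 0.5 hpd gave 10.9 and 8.89 CPM and those of 1 hpd 11.4 and 14.0 CPM. By 2 hpd the values were 23.5 and 19.3 CPM, and by 6 hpd 49.7 and 68.3 CPM. Every library lay above all libraries of the time point before it, from NT through 6 hpd. In order of time, the log2 fold changes of Nell1 against NT were 0.61 ± 0.20 (SE), 0.94 ± 0.20, 1.70 ± 0.19 and 3.16 ± 0.19. These values rest on 92 to 1172 fragments per library. At 6 hpd it ranked 6 among the 14997 tested TUs with a symbol by log2 fold change, and 1 among the 1536 that were at least 100 kb long.

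Runx2 also began at a low level and was higher at every later time. At NT, Runx2 stood at 4.85 and 5.96 CPM. After 0.5 h of dTAG-13 the values were 7.34 and 9.07 CPM, and after 1 h 9.47 and 13.2 CPM. The libraries of 2 hpd gave 18.3 and 20.7 CPM and those of 6 hpd 37.5 and 48.7 CPM. The libraries of successive time points again did not overlap, and replicate 2 was the higher in all 5 groups. The log2 fold changes of Runx2 against NT were, in order of time, 0.58 ± 0.21, 1.07 ± 0.21, 1.85 ± 0.20 and 3.00 ± 0.20. It ranked 8 of 14997 by log2 fold change at 6 hpd, and its 72 to 837 fragments per library were the fewest of the 3 genes.

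Ptprm was transcribed at a higher level from the outset and gained less in relative terms. At NT, Ptprm stood at 89.0 and 94.2 CPM. Early in the depletion Ptprm gave 109.9 and 106.9 CPM (0.5 hpd) and 115 and 122 CPM (1 hpd). The later libraries gave 156 and 144 CPM (2 hpd) and 245 and 305 CPM (6 hpd). Here too each library lay above every library of the earlier groups. The 4 log2 fold changes of Ptprm against NT were 0.24 ± 0.12, 0.37 ± 0.12, 0.71 ± 0.12 and 1.59 ± 0.12, from 1250 to 5236 fragments per library. In CPM its gain by 6 hpd was the largest of the 3 genes (183 CPM against 52.4 for Nell1 and 37.7 for Runx2), whereas by log2 fold change it ranked 114 of 14997. Of all tested TUs, 0.225% rose without overlap at all 4 steps as these genes did, a share from which nothing is read because the genes were chosen on the outer groups.

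**Figure D1:**
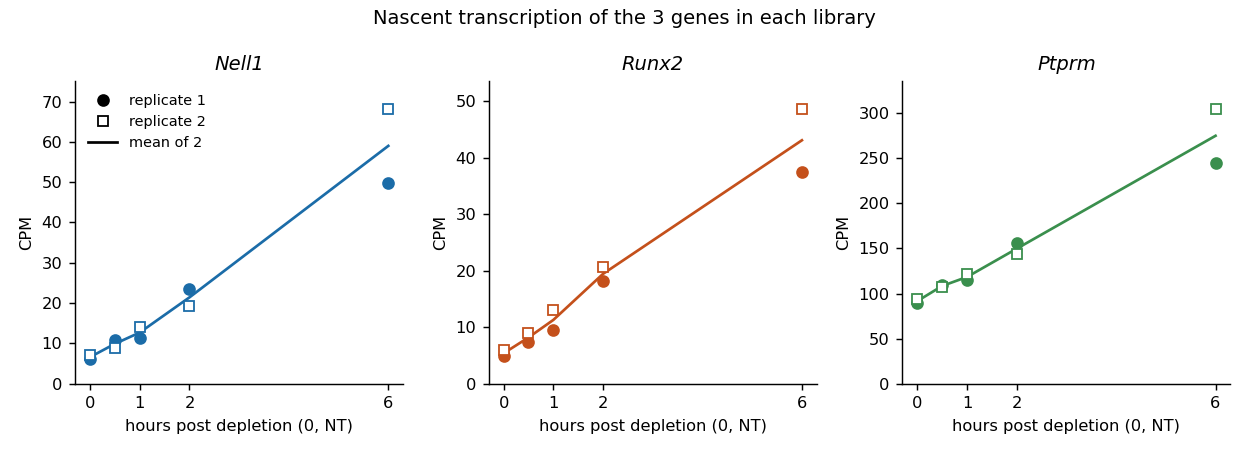
CPM of Nell1, Runx2 and Ptprm (vertical axes from 0) against hours post depletion (0 is NT), with filled circles for replicate 1, open squares for replicate 2 and a line through the mean of the 2 libraries. Nell1 ran from 6.19 to 68.3 CPM, Runx2 from 4.85 to 48.7 CPM and Ptprm from 89.0 to 305 CPM, and in each panel every time point lies above the one before.

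Most of the gain of each gene fell between 2 and 6 hpd, the longest of the intervals sampled, and the gain per hour is given below. These shares divide by the 6 hpd gain on which the genes were chosen, so a low share is partly set by that choice and is given as a description. Of its 6 hpd gain in CPM, Nell1 had reached 6.28% after 0.5 h, 11.6% after 1 h and 28.3% after 2 h. For Runx2 these shares were 7.42%, 15.7% and 37.3%, and for Ptprm 9.17%, 14.6% and 31.7%. The 1556 TUs with a symbol that were called up at 6 hpd had, in the median, reached 19.1%, 42.2% and 67.5% at the same times. At 2 hpd, 10.2% of those TUs had reached a smaller share than Nell1, 13.0% a smaller share than Ptprm and 16.3% a smaller share than Runx2. The 381 of those TUs that were at least 100 kb long had a median of 69.6% at 2 hpd. Each count covers a whole TU, and where along these long TUs the early fragments lay was not tested.

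**Figure D2:**
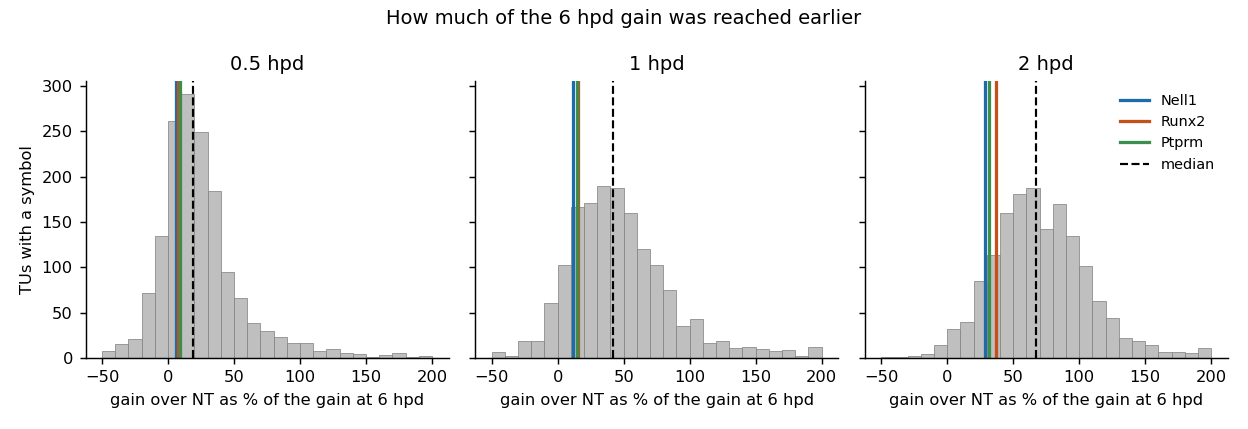
Gain in mean CPM over NT as a percentage of the gain at 6 hpd (horizontal axes) for the 1556 TUs with a symbol called up at 6 hpd (bars, number of TUs; values beyond the axis are drawn in the end bins), at 0.5, 1 and 2 hpd. At 2 hpd the coloured lines of Nell1 (28.3%), Ptprm (31.7%) and Runx2 (37.3%) stand left of the dashed median (67.5%).

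The slope per hour differed with the scale. On the log2 scale the 3 genes rose fastest in the interval from NT to 0.5 hpd, at 1.21 (Nell1), 1.16 (Runx2) and 0.49 (Ptprm) log2 units per hour, and slowest from 2 to 6 hpd, at 0.37, 0.29 and 0.22. In CPM the gain per hour was more even. Nell1 gained 6.58, 5.60, 8.72 and 9.39 CPM per hour over the 4 successive intervals and Runx2 5.60, 6.22, 8.16 and 5.91 CPM per hour. Ptprm gained 33.6, 19.9, 31.4 and 31.3 CPM per hour. With 2 libraries per group, no order among these slopes was tested.

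The means at 0.5, 1 and 2 hpd did not enter the contrast by which the genes were ordered, and the steps between them were tested. The estimate of spread behind that order was shared by all 5 groups and the genes were taken with earlier results known, so these p values are not independent support for a rise. From 0.5 to 2 hpd, all 3 genes were called up (edgeR quasi-likelihood F-test, Benjamini-Hochberg over 28459 TUs), where 0.759% of all tested TUs were. Among TUs with a symbol 1.25% were, and among those at least 100 kb long 4.88%. The log2 fold change was 1.09 ± 0.18 for Nell1 (adjusted p = 0.00334), 1.27 ± 0.19 for Runx2 (adjusted p = 0.00154) and 0.47 ± 0.11 for Ptprm (adjusted p = 0.0432). In each gene both 2 hpd libraries lay above both 0.5 hpd libraries. From 1 to 2 hpd the values were 0.75 ± 0.17 (adjusted p = 0.141), 0.78 ± 0.18 (adjusted p = 0.141) and 0.34 ± 0.11 (adjusted p = 0.515), so that 0 of 3 were called by edgeR beside 0.0211% of all TUs, whereas 3 had an unadjusted p under 0.05 and DESeq2 called 2 (Nell1 and Runx2). From 0.5 to 1 hpd the values were 0.34 ± 0.18, 0.49 ± 0.19 and 0.13 ± 0.11 (adjusted p = 0.981, 0.782 and 0.983), with 0 called by edgeR beside 0.0105% of all TUs, 1 (Runx2) at an unadjusted p under 0.05 and 0 by DESeq2. Without 1 hpd replicate 2 these 3 values were 0.18, 0.23 and 0.080, and over all fits without 1 library they reached 0.52, 0.70 and 0.17. The call of Ptprm from 0.5 to 2 hpd was lost (adjusted p = 0.0521 to 0.224) without either NT library, either 0.5 hpd library, either 1 hpd library or 2 hpd replicate 1, with only the compared libraries, and when TUs had to average 50 counts or more, while those of Nell1 and Runx2 held without each library.

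Per kilobase of TU, the order of the levels was Ptprm, Runx2, Nell1 in every group. At NT the level per kilobase was 0.138 ± 0.0056 CPM per kb (SD, n = 2) for Ptprm, 0.0408 ± 0.0059 for Runx2 and 0.0133 ± 0.0012 for Nell1. At 6 hpd it was 0.415 ± 0.064, 0.326 ± 0.060 and 0.119 ± 0.026 CPM per kb. The 6 hpd libraries of Ptprm and Runx2 were not tested against each other on this scale. Among TUs with a symbol, the level per kilobase of Nell1 moved from above 0.140% of them at NT to above 13.6% at 6 hpd, that of Runx2 from 2.26% to 30.3% and that of Ptprm from 15.6% to 34.6%. The 3 genes thus remained in the lower part of the range at 6 hpd.

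By length, Ptprm ranked 13, Nell1 30 and Runx2 940 among the 14997 tested TUs with a symbol. A rise at 6 hpd was called more often among longer TUs: in 2.73% of those under 10 kb, 7.57% of those of 10 to 50 kb, 18.9% of those of 50 to 100 kb and 24.8% of those of at least 100 kb. The median number of fragments rose along these classes, from 26.6 to 330, 1268 and 1963, and its part in the shares was not tested. Among TUs at least as long as Runx2, 249 of 940 were called up and 65 down, among the 30 at least as long as Nell1 9 were called up and 4 down, and among the 13 at least as long as Ptprm, 2 were called up and 2 down. Falls were called in 6.20%, 8.59%, 6.81% and 7.29% of the 4 classes.

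The replicates of the 3 genes did not always deviate together. At NT, 1 hpd and 6 hpd, replicate 2 was above replicate 1 in all 3 genes, by 1.37 times for Nell1, 1.30 times for Runx2 and 1.25 times for Ptprm at 6 hpd. At 0.5 and 2 hpd, replicate 1 was the higher for Nell1 and Ptprm and replicate 2 for Runx2. Over the 8 depleted libraries, the log2 change from the NT mean differed between Nell1 and Runx2 by 0.230 (root mean square), and between Ptprm and either of them by 0.970 (Nell1) and 0.981 (Runx2). By this measure Runx2 was the TU with a symbol most like Nell1 and Nell1 the one most like Runx2. The measure includes the 6 hpd values that chose both, and it was not run without them. By the Pearson correlation of log2 CPM over the 10 libraries, which ignores the size of the change and which the group means dominate, Nell1 was instead closest to Ptprm among the 3 (0.993, beside 0.982 with Runx2), and Runx2 and Ptprm gave 0.972. After Runx2, Atp1a4 (0.349) and Pou3f1 (0.398) were most like Nell1, and after Nell1, Gm29891 (0.265) and Atp1a4 (0.307) were most like Runx2. Atp1a4, a catalytic subunit of the sodium pump, averaged 0.568 CPM at NT and 4.48 CPM at 6 hpd, and Pou3f1, a POU factor of the primed pluripotent state, 0.283 and 2.65 CPM, from far fewer fragments than the 3 genes. Those most like Ptprm were Ncald (0.114), which encodes a calcium sensor, Ptgr1 (0.127), a prostaglandin reductase, and Slc7a8 (0.142), an amino acid transporter, each 1.47 to 1.51 higher on the log2 scale at 6 hpd than at NT.

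Of the 17 extragenic and antisense TUs within 200 kb, 12 were extragenic and 5 antisense, 2 of them near Nell1, 9 near Runx2 and 6 near Ptprm. Only 8 passed the filter of more than 10 fragments in at least 2 libraries (0 near Nell1, 4 near Runx2 and 4 near Ptprm), and no untested one exceeded 12 fragments in a library. At 0.5 hpd, edgeR called 0 of the 8 up and 0 down, beside 0.527% and 0.787% of all tested TUs. At 1 hpd it called 0 up and 0 down, beside 2.15% and 3.61%, and at 2 hpd 0 up and 0 down, beside 4.26% and 5.57%. Unadjusted p values were under 0.05 for 0, 0 and 3 of the 8 at these times, and DESeq2 called none of the 8 at any of the 3. At 6 hpd, 4 were called up, beside 6.61% of all TUs, and 0 down, beside 9.2%. Of the 4, a pair overlaps the gene Supt3 and another overlaps the GENCODE gene Ptprm on its own strand (below), so they are not all separate from annotated genes. The share called up is higher among long TUs: with a symbol, it was 18.9% at 50 to 100 kb and 24.8% at 100 kb or more. The median log2 fold change of the 8 at 6 hpd was 0.53, beside -0.04 over all tested TUs, and 1 of the 4 passed the filter only through groups in which it was high. The 4 contrasts share the NT libraries. The count at 6 hpd fell to 0 without NT replicate 2 or 6 hpd replicate 2, to 1 without 6 hpd replicate 1 and to 2 when TUs had to average 50 counts or more.

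**Figure D3:**
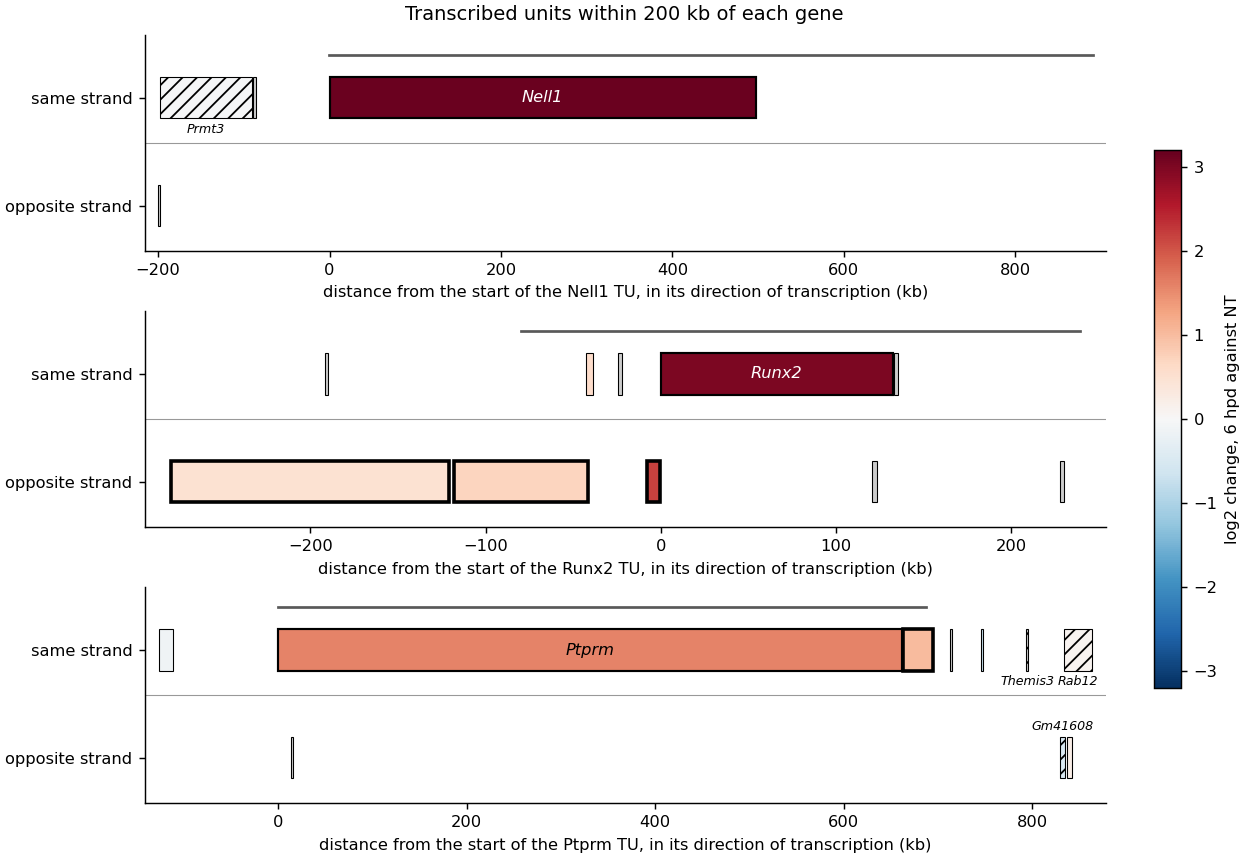
TUs within 200 kb of Nell1, Runx2 and Ptprm, by distance from the start of the TU of the gene in kb in its direction of transcription; boxes above the line lie on the strand of the gene and those below on the opposite strand, hatched boxes carry another gene symbol, the line at the top of each panel is the GENCODE gene, and boxes shorter than 2 kb are drawn at 2 kb. Colour gives the log2 change at 6 hpd (grey, not tested) and thick edges mark neighbours with an adjusted p under 0.05: 3 on the strand opposite Runx2 and 1 next to the end of Ptprm.

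Near Nell1 the extragenic and antisense TUs were weak. The neighbouring gene Prmt3, an arginine methyltransferase gene that ends 90.7 kb before the Nell1 TU, was transcribed at 151 and 140 CPM at NT and at 134 and 149 CPM at 6 hpd, with a log2 change of -0.04 ± 0.16 (adjusted p = 0.892). An extragenic TU on the same strand (chr7:49886799-49890308) held at most 0.607 CPM in a library, and an antisense TU at the start of Prmt3 (chr7:49775600-49778334) at most 0.399 CPM. Neither was tested. Within the Nell1 gene, 0 TUs were found on the opposite strand.

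Around Runx2, the nearest TU to the start was an antisense one on the + strand (chr17:44735703-44742892), which began 0.587 kb upstream of the Runx2 TU start, ran away from it and overlapped the GENCODE antisense gene Runx2os1. Its libraries held 5 and 1 fragments (NT), 8 and 5 (0.5 hpd), 4 and 9 (1 hpd), 13 and 14 (2 hpd) and 13 and 18 (6 hpd). In CPM it went from 0.337 and 0.0727 at NT to 0.657 and 0.818 at 2 hpd and 0.913 and 1.05 at 6 hpd, with no overlap between the NT and the 6 hpd libraries. The log2 fold change at 6 hpd was 2.20 ± 0.59 (adjusted p = 0.0207), but this TU passed the count filter only through the groups in which it was high, so its call is no independent sign of a rise. DESeq2 did not call it (adjusted p = 0.0861), nor did edgeR without NT replicate 2 (1.55, adjusted p = 0.169), 6 hpd replicate 1 (adjusted p = 0.0573) or 6 hpd replicate 2 (adjusted p = 0.102). Without NT replicate 1 the log2 fold change was 3.65.

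Further upstream, and also opposite to Runx2, lay a pair of TUs that the deposited table gives as extragenic, at chr17:44776833-44852984 and chr17:44856064-45014334. Both overlap Supt3 on the + strand in GENCODE, the gene of a subunit of the SAGA coactivator complex that begins inside the Runx2 gene and shares its upstream region. The TU nearer to Runx2 stood at 25.8 and 19.9 CPM at NT, at 39.8 and 26.8 CPM at 2 hpd and at 35.9 and 39.6 CPM at 6 hpd, with a log2 change of 0.72 ± 0.20 at 6 hpd (adjusted p = 0.0261). The farther TU stood at 38.8 and 42.7 CPM at NT, at 61.8 and 43.6 CPM at 2 hpd and at 52.8 and 60.8 CPM at 6 hpd, with a log2 change of 0.48 ± 0.15 (adjusted p = 0.0463). In both, the 6 hpd libraries lay above the NT libraries, and the 2 hpd libraries differed more from each other than their mean did from NT. Both calls were lost without NT replicate 2 or either 6 hpd library, and that of the farther TU also without NT replicate 1 or either 1 hpd library, with total counts as the library size (adjusted p = 0.0528) and when TUs had to average 50 counts or more (adjusted p = 0.0768).

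Within the upstream part of the Runx2 gene, on its own strand, a short extragenic TU (chr17:44774049-44777542) stood at 0.538 and 0.436 CPM at NT and 0.773 and 0.699 CPM at 6 hpd, with a log2 change of 0.58 ± 0.45 (adjusted p = 0.425). Another, 1.05 kb past the Runx2 TU end (chr17:44599481-44601800), was not tested and held 0 and 0.363 CPM at NT and 0.211 and 0.582 CPM at 6 hpd. A further untested one, 24.0 kb upstream of the Runx2 TU (chr17:44759072-44759275), held 0.673 and 0.872 CPM at NT and 0.492 and 0.233 CPM at 6 hpd. A TU antisense to the Runx2 body (chr17:44611911-44614380) held 1 and 0 fragments at NT and 6 and 11 at 6 hpd, and was not tested.

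**Figure D4:**
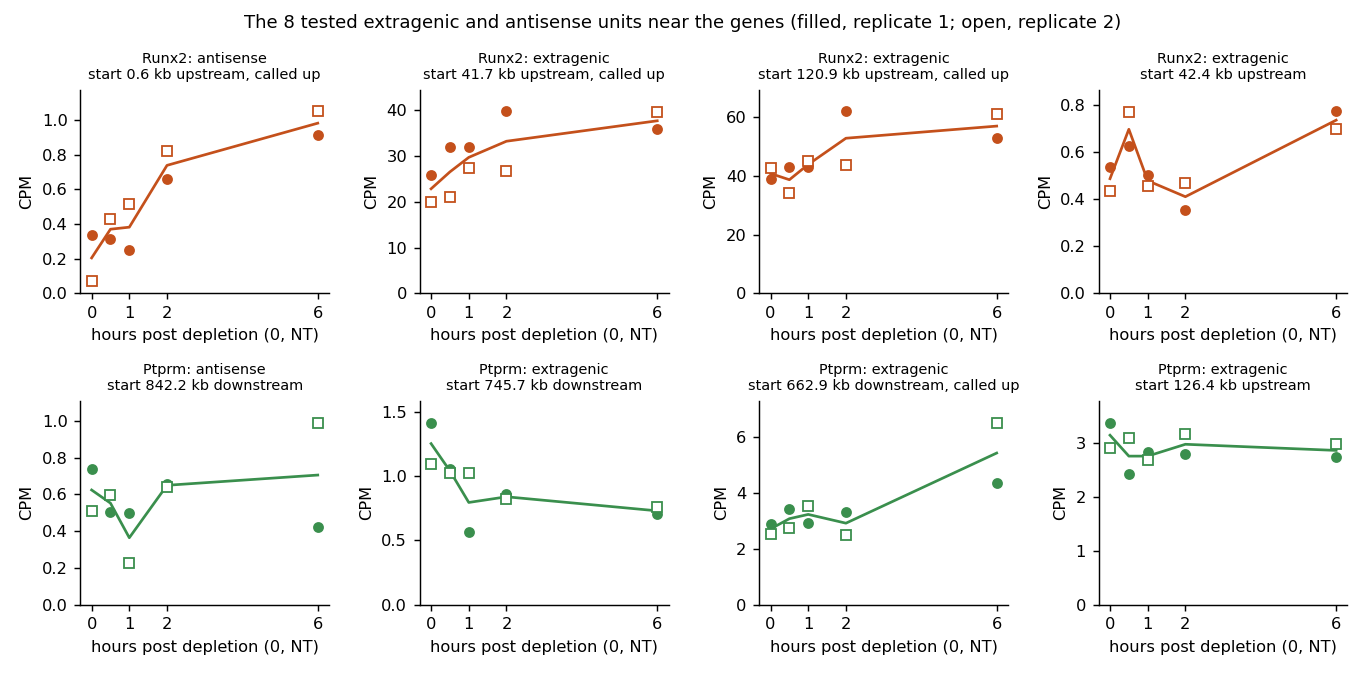
CPM of the 8 tested extragenic and antisense TUs (vertical axes from 0) against hours post depletion (0 is NT); filled circles are replicate 1, open squares replicate 2, lines the mean of the 2 libraries, and each title gives the distance of the TU start from the start of the neighbouring gene. The antisense TU at the Runx2 start rose from 0.205 to 0.981 CPM in the mean, and the TU past the end of Ptprm from 2.72 to 5.44 CPM.

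Just beyond Ptprm, 1.17 kb past the end of its TU, an extragenic TU on the same strand (chr17:66658917-66691260) covered part of the last stretch of the GENCODE gene. Its libraries gave 2.89 and 2.54 CPM (NT), 3.43 and 2.74 CPM (0.5 hpd), 2.95 and 3.53 CPM (1 hpd), 3.34 and 2.51 CPM (2 hpd) and 4.36 and 6.52 CPM (6 hpd). The groups up to 2 hpd overlapped, and both 6 hpd libraries lay above all others, with a log2 change of 1.01 ± 0.26 (adjusted p = 0.0159). Whether its fragments come from Ptprm transcripts that continue past the counted unit was not tested. The call was lost without NT replicate 2 (adjusted p = 0.115) or 6 hpd replicate 2 (adjusted p = 0.194).

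None of the other tested TUs near Ptprm was called. An extragenic TU 84.0 kb past its end (chr17:66608118-66608443) stood at 1.41 and 1.09 CPM at NT and 0.702 and 0.757 CPM at 6 hpd, with a log2 change of -0.77 ± 0.39 (adjusted p = 0.196). One upstream of the start (chr17:67466033-67480528) stood at 3.37 and 2.91 CPM at NT and 2.74 and 2.97 CPM at 6 hpd (-0.13 ± 0.24, adjusted p = 0.741), and an antisense TU at the end of Rab12 (chr17:66512000-66517304) gave 0.20 ± 0.51 (adjusted p = 0.819). A TU antisense to the Ptprm body (chr17:67338664-67341081) was not tested and held at most 0.513 CPM. Of the neighbouring genes, Rab12, a small GTPase gene, gave 0.10 ± 0.10 (adjusted p = 0.544) and Gm41608 gave -0.48 ± 0.69 (adjusted p = 0.682) at 6 hpd, and Themis3 was not tested.

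The gene lists below are read against the TUs with a symbol, of which 10.4% were called up and 7.75% down at 6 hpd, beside 6.61% and 9.2% of all tested TUs. Of 20 RUNX factors and cofactors, 16 were tested, and at 6 hpd 3 were called up and 0 down, with a median log2 fold change of 0.15 beside -0.04 over all tested TUs and 0.07 over those with a symbol. Runx3, the RUNX factor of T cells and sensory neurons, went from 1.60 to 3.18 CPM in the mean (0.98 ± 0.25, adjusted p = 0.0142) with a log2 change of 2.06 at 2 hpd. Cbfb, the shared RUNX partner, rose by 0.37 ± 0.11 (adjusted p = 0.0403), and Yap1, a coactivator that binds RUNX2, by 0.44 ± 0.12 (adjusted p = 0.0251). Runx1, the RUNX factor of blood stem cells, averaged 0.425 CPM at NT and 0.560 CPM at 6 hpd (0.43 ± 0.54, adjusted p = 0.628). The 3 calls of this list all fell away without NT replicate 2 or 6 hpd replicate 2, and numbered 1 without 6 hpd replicate 1. They numbered 6 with only the compared libraries, and 4 genes were called down with library totals unscaled.

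Of 29 listed osteoblast and skeletal genes, only 8 had a TU under their symbol. All 8 were tested, and 1 was called up and 3 down at 6 hpd, with a median of -0.26. Sparc, the matrix protein osteonectin, rose by 0.61 ± 0.10 (adjusted p = 0.000808), and its log2 change was already 0.56 at 0.5 hpd. Spp1, osteopontin, fell from 192 to 57.8 CPM in the mean (-1.74 ± 0.11, adjusted p = 8.77e-08), Msx2, a homeobox factor, from 0.904 to 0.0994 CPM (-3.15 ± 0.71, adjusted p = 0.00697), and Alpl, alkaline phosphatase, from 155 to 120 CPM (-0.37 ± 0.10, adjusted p = 0.0266). Msx2 rested on 15 and 11 fragments at NT and 2 and 1 at 6 hpd, and lost its call without 6 hpd replicate 2 (adjusted p = 0.0848). The call of Alpl was lost with RLE factors (adjusted p = 0.0533), in DESeq2 (adjusted p = 0.0546), and without NT replicate 1 or either 6 hpd library (adjusted p = 0.104 to 0.168). Spp1 and Alpl are also transcribed in untreated stem cells at these levels. Of the 4 defining bone genes, Col1a1, a chain of type I collagen, averaged 0.672 CPM at NT and 1.04 CPM at 6 hpd (0.65 ± 0.43, adjusted p = 0.326). No TU was listed under the symbols Sp7, Bglap and Ibsp, so these were not tested. Without 6 hpd replicate 2, 1 of the 3 falls was called.

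Of 18 genes of the NEL-like family, its binding partners and von Willebrand C proteins, 8 were tested, with 1 called up, 1 down and a median of 0.12, counts too small to set apart from the shares over all TUs. Crim1, a transmembrane regulator of bone morphogenetic proteins, rose from 16.8 to 37.1 CPM (1.15 ± 0.15, adjusted p = 8.02e-05), and its log2 change was -0.05 at 0.5 hpd, -0.02 at 1 hpd and 0.41 at 2 hpd. Cntnap4, a neuronal membrane protein reported to bind NELL1, fell from 2.93 to 0.385 CPM (-2.91 ± 0.38, adjusted p = 9.43e-05). Nell2, the paralogue of Nell1, averaged 0.137 CPM at NT and was not tested.

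Of 20 other receptor-type phosphatases, 10 were tested, with 1 called up and 1 down, close to the shares over TUs with a symbol, and a median of 0.13. Ptprs rose from 33.3 to 55.5 CPM (0.74 ± 0.11, adjusted p = 0.000355), and Ptprd, its relative in the same subfamily, fell from 3.92 to 1.73 CPM (-1.15 ± 0.35, adjusted p = 0.0382), a call that was lost without either NT library or 6 hpd replicate 1. Ptpru, of the same MAM-domain subfamily as Ptprm, averaged 2.44 CPM at NT, rose to 4.75 CPM at 2 hpd (0.96 ± 0.24, adjusted p = 0.0196) and was at 2.60 CPM at 6 hpd (0.08 ± 0.26, adjusted p = 0.860). No TU was listed under the symbols Ptprk and Ptprt, which belong to that subfamily. Of 10 cadherins, catenins and signalling proteins that PTPRM works with, all 10 were tested. Beside 10.4% up and 7.75% down among TUs with a symbol, 3 were called up and 0 down, with a median of 0.25. These were Ctnna1, alpha-catenin (0.52 ± 0.13, adjusted p = 0.0127), Cdh4, R-cadherin (0.66 ± 0.17, adjusted p = 0.0172), and Ctnnd1, p120-catenin (0.35 ± 0.11, adjusted p = 0.0384). The count was 0 without NT replicate 1 or 6 hpd replicate 2 and 1 without NT replicate 2. Cdh1, E-cadherin, averaged 368 CPM at NT and rose to 561 CPM at 1 hpd (0.61 ± 0.12, adjusted p = 0.00438) and 514 CPM at 2 hpd (0.48 ± 0.11, adjusted p = 0.0140). At 6 hpd it was at 433 CPM (0.24 ± 0.11, adjusted p = 0.177).

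**Figure D5:**
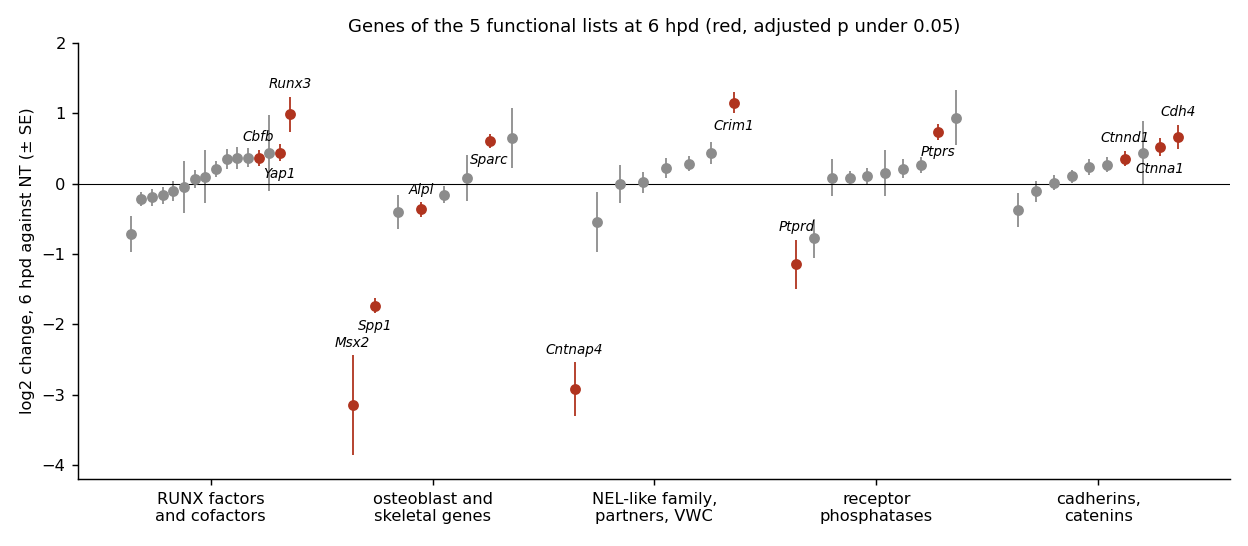
Log2 change at 6 hpd against NT (vertical axis, ± SE) of each tested gene of the 5 functional lists, with genes at an adjusted p under 0.05 in red and named. The red points number 3 among RUNX factors and cofactors, 4 among osteoblast and skeletal genes, 2 in the NEL-like list, 2 among receptor phosphatases and 3 among cadherins and catenins.

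Single markers of other cell types rose with the 3 genes in some lists. The summed CPM of the 7 primitive endoderm markers with a TU, of 11 listed, was 35.9 to 37.7 at NT, 56.2 to 60.9 at 2 hpd and 77.0 to 94.4 at 6 hpd. Of 6 tested, 2 were called up, and they hold most of that sum: Dab2 went from 13.2 to 49.7 CPM and Lamb1 from 19.0 to 28.7 CPM in the mean. Fewer were called without 6 hpd replicate 2. Dab2 is also among the TUs that came next in the order by which the genes were chosen. Of the defining factors, Gata6 rose from 1.15 CPM at NT to 2.54 CPM at 2 hpd (1.14 ± 0.31, adjusted p = 0.0295) and was at 2.09 CPM at 6 hpd (0.85 ± 0.32, adjusted p = 0.0895). Gata4 averaged 1.04 CPM at NT and 0.858 CPM at 6 hpd, and Sox17, not tested, 0.319 and 0.456 CPM. The fibroblast sum went from 9.74 to 12.5 CPM at NT to 27.3 to 42.6 CPM at 6 hpd, through Pdgfrb (1.71 ± 0.21), with 1 of 2 tested markers called up. The trophoblast sum was 70.4 to 74.1 CPM at NT and 60.3 to 70.0 CPM at 6 hpd (1 of 6 tested up, 2 down), and that of mesoderm and neural ectoderm 12.7 to 17.6 CPM at NT and 15.4 to 18.9 CPM at 6 hpd (0 of 3 called). In bulk libraries, a larger share of some cells and more transcription per cell cannot be told apart, and the part of these markers in the rise of Nell1, Runx2 and Ptprm was not tested.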

How the data were processed

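The 10 TT_chem-seq libraries were placed in 5 groups of 2 replicates by their labels. Per the methods of the study, the authors mapped reads to mm10 (bwa 0.7.17-r1188), kept those of sufficient mapping quality (SAMtools 1.10), discarded duplicates (Picard 2.12.0) and separated the strands. TUs were then called by a 2-state hidden Markov model on all libraries pooled per strand and linked to RefSeq genes. The authors deposited, without normalization, the count of fragments in each TU of each library, along with TU positions in base pairs. Because TUs came from the pooled libraries, a unit spans the same interval in every library, and a gene that the model covered in part is counted in part.

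Counts were fitted with edgeR 4.0.16 under R 4.3.3, using TMM factors and a coefficient for each of the 5 groups. A filter of more than 10 fragments in at least 2 libraries left out 12320 TUs with 0.316% of the fragments. The quasi-likelihood F-test was adjusted by Benjamini-Hochberg over all tested TUs, and an adjusted p under 0.05 made a call. CPM used the TMM factors, and log2 CPM a prior count of 2. The biological coefficient of variation was 10.0%. Tests cover the spread between these libraries, and sequencing or extraction batches are not given in the sources used here.

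The genes, gene lists and tests were chosen with earlier results of these data known. Named TUs were the 3 genes, the neighbouring extragenic and antisense TUs nearest to each start, overlapping a gene or with the smallest p at 6 hpd (up to 4 for each), genes within 200 kb, up to 4 called genes of each list together with Runx1, Runx3, Cbfb, Nell2, Ptprk, Ptprt and Ptpru, and the 3 TUs with a symbol closest in root mean square difference of log2 change over the 8 depleted libraries. Outside this rule, Sox2, Stum, Mbnl2, Cdh1, Col1a1 and the markers Dab2, Lamb1, Gata6, Gata4, Sox17 and Pdgfrb were named after their values were seen. The untested TUs at the start of Prmt3 and on the strand of Runx2 within its gene were also named outside the rule. Annotation came from GENCODE and RefSeq, and promoter sequences from RefSeq's GRCm38.p6. Apart from the starts searched, 1 promoter is not reported here. The fit was tested on simulated data: of TUs changed at 6 hpd against NT, 18.2% were recovered at a log2 change of 0.5, 74.6% at 1 and 94.0% at 2. The changed TUs were drawn from those above a floor on the mean count, so these shares do not cover the weakest TUs. Alternatives were RLE factors, library totals without scaling, no count filter, a filter on a mean of 50 counts, the replicate number as a block, fits to the compared libraries alone, DESeq2 1.42.0 and leaving out each library.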

Additional observations from a re-analysis of the deposited data

Results flagged for a closer look

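The TU antisense to the body of Runx2 (chr17:44611911-44614380, + strand) lay outside the tests because of its low counts, yet held a mean of 0.531 CPM at 6 hpd, above both NT libraries. Its libraries held 1 and 0 fragments (NT), 0 and 1 (0.5 hpd), 0 and 2 (1 hpd), 3 and 2 (2 hpd) and 6 and 11 (6 hpd). It overlaps the Runx2 TU on the opposite strand, and its part in the Runx2 signal was not tested. No group had enough libraries for a check of single outlying samples.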

How the results depend on the processing

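The rise of the 3 genes kept its direction in every alternative run. From 1 to 2 hpd, Nell1 and Runx2 were called with the replicate number as a block (0.76 on the log2 scale for Nell1, adjusted p = 0.0201; 0.79 for Runx2, adjusted p = 0.000911) and in DESeq2 (Nell1 0.76, adjusted p = 0.0418; Runx2 0.79, adjusted p = 0.0367), but not in edgeR without the block. From 0.5 to 2 hpd, Ptprm lost its call with a filter on a mean of 50 counts (0.43, adjusted p = 0.0521) and with only the compared libraries (0.47, adjusted p = 0.161). With library totals unscaled, Ptprm gave 0.28 at 1 hpd and 0.59 at 2 hpd against NT. The cause of these differences was not tested.

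Leaving out each library gave 0.43 to 0.74 for Nell1 at 0.5 hpd and 2.91 to 3.38 at 6 hpd. It gave 0.20 to 0.29, 0.32 to 0.43 and 1.42 to 1.75 for Ptprm at 0.5, 1 and 6 hpd, and 0.40 to 0.51 for Ptprm from 0.5 to 2 hpd.

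Replicate numbers are not stated to pair the libraries, so the numbers were taken as shared names only. The replicate differences of 2 groups correlated at 0.0544 to 0.663 over 10 pairs of groups (median 0.401). Whether libraries of the same replicate number share a batch was not tested. With the block, the extragenic and antisense TUs called up at 2 hpd numbered 2, RUNX factors and cofactors called up at 6 hpd 6 and down 1, the NEL-like list up 3, and receptor phosphatases up 2 and down 2. Primitive endoderm markers called up numbered 4. With only the compared libraries, the corresponding counts were 1 at 2 hpd, 6 and 1 for the RUNX list, 2 for the NEL-like list and 2 receptor phosphatases up. With a mean of at least 50 counts, 2 extragenic and antisense TUs were called up at 6 hpd, 1 RUNX gene down, and 0 genes down in the NEL-like list and among receptor phosphatases, where DESeq2 also called 0 down. With unscaled totals 4 RUNX genes were called down.

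Leaving out each library gave 0 to 2 extragenic and antisense TUs up at 2 hpd and 0 to 4 at 6 hpd. It gave 0 to 5 RUNX genes up and 0 to 1 down, 1 to 3 osteoblast genes down, 1 to 2 genes of the NEL-like list up, 0 to 1 receptor phosphatases down and 0 to 4 cadherins and catenins up.

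Some changes that had passed no test turned direction at 6 hpd. Over the fits without 1 library, Prmt3 ranged from -0.12 to 0.046, turning without replicate 1 of NT (0.029) or of 6 hpd. The antisense TU at the end of Rab12 ranged from -0.57 to 0.66 and turned without replicate 2 of 6 hpd or of NT (-0.0094). Gm41608 ranged from -1.37 to 0.15 and turned without replicate 2 of 6 hpd, and Runx1 ranged from -0.011 (without replicate 1 of NT) to 1.08. Ptpru ranged from -0.037 (without replicate 2 of NT) to 0.26, with -0.019 lacking replicate 1 of 6 hpd, and gave -0.0044 with unscaled totals. Depth limits the TUs near the genes: those left untested held at most 12 fragments in a library.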
